A study of Mus musculus with 18 samples.

Results

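The T cell receptor beta locus of the mouse lies on chromosome 6 and holds variable (Trbv), diversity (Trbd), joining (Trbj) and constant (Trbc) genes. The members described here are the 53 genes whose symbols begin with Trbv, Trbd, Trbj or Trbc among the 55494 genes measured: 35 Trbv, 2 Trbd, 14 Trbj and 2 Trbc genes. All 53 matched a RefSeq entry of the assembly GRCm38.p6, the release that mm10 stands for, and 41 of them had at least 1 UMI (unique molecular identifier, 1 captured RNA molecule) in the data. They were measured as single-cell RNA counts beside antibody tag counts in 1331 thymocytes of 6 mice, 1 mouse for each pairing of receptor and host.

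Donor cells carried the OT1 or the OT2 transgenic receptor (CD45.1.2). OT1 sees an ovalbumin peptide on MHC class I and OT2 sees one on MHC class II, and both receptors use a Vα2 alpha chain and a Vβ5 beta chain. All 6 mice were female mixed bone marrow chimeras on the B6 background, aged 14 weeks and taken 6 weeks after transplant, with 30% donor marrow and 70% CD45.1 competitor marrow. PosSelected hosts were wild type (C57BL6/Ncr). NegSelected hosts were RIPmOVA animals, in which the rat insulin promoter drives an ovalbumin transgene. The NoSelection host of OT1 was a B2m knockout. That of OT2 was an MHC class II knockout by its treatment label, although another label of the same animal names B2m, so the NoSelection term may join 2 host genotypes. The sort kept Vα2 and Vβ5 positive donor cells (CD45.1.2) with low CD44, so the shares of Vβ5 cells below describe cells already chosen by a Vβ5 antibody. There were 306 cells of the OT1 NoSelection mouse, 282 of OT1 PosSelected, 204 of OT1 NegSelected, 108 of OT2 NoSelection, 254 of OT2 PosSelected and 177 of OT2 NegSelected. No cell barcode was shared between mice. Where 3 values are given for a receptor below, they stand for its NoSelection, PosSelected and NegSelected mouse, in that order.

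A beta chain is made by joining 1 V, 1 D and 1 J gene upstream of a constant gene during early thymocyte development. A productive beta chain normally stops further V-to-DJ joining, which is called allelic exclusion, and a rearranged beta transgene supplies that chain from the start. Vβ5 is encoded by Trbv12-1 (Vβ5.2 in the older naming, bases 41113567 to 41114067) and Trbv12-2 (Vβ5.1, bases 41118864 to 41119364), 2 near-identical genes, so that reads of one can be placed on the other. Their levels by mouse, and by gate in the OT2 mice, are given apart and summed. Levels are given as CPM, UMIs per 1000000 RNA UMIs of the same cells. The read is from the 5′ end, so CPM was not divided by gene length and levels of different genes are not compared with each other as expression.

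Depth differed between the receptors. RNA UMIs ran from 1276716 to 1867488 per OT1 mouse and from 525843 to 805275 per OT2 mouse, and the median cell held 4733 to 5385 UMIs in the OT1 mice and 2756 to 3022 in the OT2 mice. Trb genes took 34865 UMIs in all, and 1314 cells had at least 1. By kind, 18553 UMIs lay on Trbv genes, 1248 on Trbj genes, 15064 on Trbc genes and 0 on the Trbd genes Trbd1 and Trbd2. Of the 13 Trbv genes annotated as pseudogenes, 3 had a UMI, and they held 28 UMIs together. Intervals below are exact 95% intervals (Clopper-Pearson for shares, Poisson for CPM), and they cover counting error only. All 6 mice shared 1 lane, and the part of cell-free RNA passing between them was not tested.

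The 2 Vβ5 genes separated the receptors. Trbv12-1 stood at 2795, 2814 and 3101 CPM in the OT1 mice and at 635, 180 and 185 CPM in the OT2 mice. Trbv12-2 stood at 25.7, 6.98 and 13.3 CPM in the OT1 mice and at 998, 1001 and 1030 CPM in the OT2 mice. For neither gene did the mice of one receptor overlap with those of the other. In the edgeR quasi-likelihood fit with terms for receptor and host, Trbv12-1 was lower in OT2 (log2 fold change -3.41, SE 0.36, adjusted p = 0.00415) and Trbv12-2 was higher (6.07, SE 0.34, adjusted p = 9.87e-05). Summed to 1 feature, the pair fell by 1.17 on the log2 scale from OT1 to OT2 (SE 0.15, edgeR adjusted p = 0.0117), with 2821 to 3114 CPM in the OT1 mice and 1181 to 1634 CPM in the OT2 mice. The call on the sum of Trbv12-1 plus Trbv12-2 was lost without the OT1 NegSelected mouse (adjusted p = 0.156) and without the OT2 NegSelected mouse (adjusted p = 0.157), with log2 fold changes of -1.04 in both cases.

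**Figure D1:**
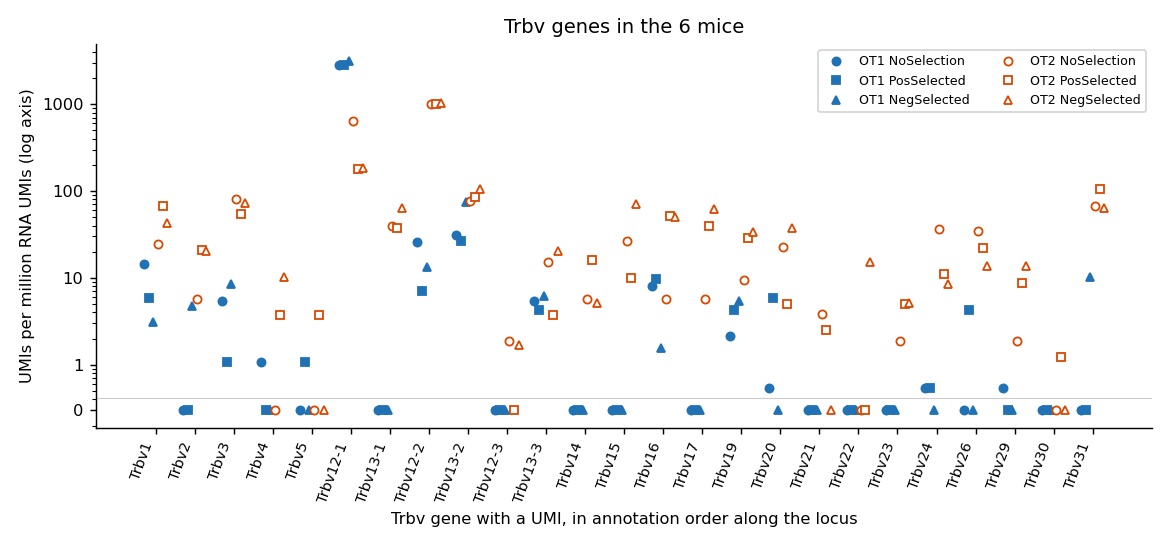
Level of each Trbv gene that had a UMI, in annotation order along the locus, with UMIs per 1000000 RNA UMIs on a log axis (values of 0 are drawn under the grey line) and 1 point per mouse. Trbv12-1 is at 2795 to 3101 CPM in the 3 OT1 mice (filled blue), Trbv12-2 is at 998 to 1030 CPM in the 3 OT2 mice (open orange), and most other segments are higher in the OT2 mice.

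Of the UMIs on the Trbv12 pair, Trbv12-1 took 99.1%, 99.8% and 99.6% in the OT1 mice. It took 38.9% (interval 35.6 to 42.2%), 15.2% and 15.2% in the OT2 mice, so NoSelection was the highest of the 3, and the receptors did not overlap. The means differed by 76.4 percentage points, and the exact permutation test over 3 against 3 mice gave its smallest possible p, 0.1.

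In single cells the 2 segments were mostly apart. An OT1 cell led by Trbv12-1 (752 cells) held a median of 16 Trbv12-1 UMIs, and an OT2 cell led by Trbv12-2 (332 cells) held a median of 3 Trbv12-2 UMIs, with 1 UMI alone in 100 of them. At least 2 UMIs of both segments were seen in 0.355 to 0.654% of the cells of an OT1 mouse and in 0.787 to 2.78% of those of an OT2 mouse. Cells thinned to 1500 UMIs had a UMI of the pair in 93.3%, 93.3% and 93.5% of cells in the OT1 mice and in 62.9%, 62.9% and 49.4% in the OT2 mice. Without thinning these shares were 95.1 to 96.5% in OT1 and 61.0 to 77.8% in OT2. Thinning left out 5 to 12 shallower cells per OT1 mouse and 11 to 21 per OT2 mouse. No cell type that should lack a beta chain was in the sort, so no background share of cells could be taken from one. The nearest measure was Trbv12-2 in OT1 cells: 34 of 792 had a UMI (4.29%), 30 of them exactly 1, and 1 cell held 36 of the 78 UMIs.

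**Figure D2:**
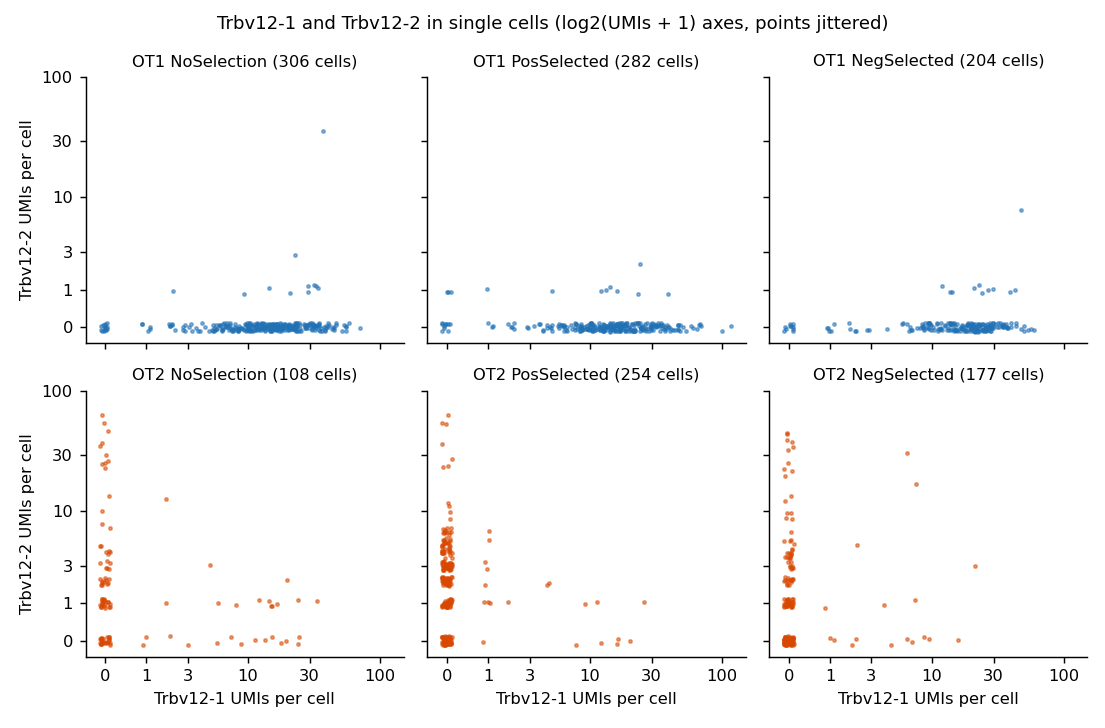
Trbv12-1 against Trbv12-2 UMIs in each cell, 1 panel per mouse, on log2(UMIs + 1) axes with jittered points. OT1 cells lie along the Trbv12-1 axis, most OT2 cells along the Trbv12-2 axis, and each OT2 panel also holds cells along the Trbv12-1 axis.

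A small set of OT2-mouse cells was led by the OT1 segment. Trbv12-1 exceeded Trbv12-2 in 51 OT2 cells, 26 of the NoSelection mouse (24.1% of its cells), 12 of PosSelected (4.72%) and 13 of NegSelected (7.34%), at a median of 9 Trbv12-1 UMIs, and 38 of the 51 held at least 5. Of the 51 cells, 21 also held a Trbv12-2 UMI, while 9 of the 332 OT2 cells led by Trbv12-2 also held a Trbv12-1 UMI. Rnf43, a ubiquitin ligase that removes Wnt receptors, named here after its values were seen, had a UMI in 1.60% of OT1 cells led by Trbv12-1, in 67.8% of OT2 cells led by Trbv12-2 and in 68.6% (interval 54.1 to 80.9%) of these 51 cells. By antibody, 34 of the 51 were CD4-CD8-, against 15.4% of the OT2 cells led by Trbv12-2. Trdc, the constant gene of the T cell receptor delta chain, had a UMI in 60.8% of them against 13.6%, and Sox13, a transcription factor of gamma delta T cells, in 52.9% against 6.02%. Their median depth was 5118 UMIs against 2885 in the OT2 cells led by Trbv12-2, and these shares were not thinned. The shares also pool cells over the OT2 mice, whose gates differed, so they mix mouse with segment. Of all cells, 49 of 108 in NoSelection, 22 of 254 in PosSelected and 30 of 177 in NegSelected were CD4-CD8-. Without the 51 cells the CD4-CD8- counts were 29, 15 and 23 in that order. Trdc and Sox13 were not compared within mice. The converse was rare: Trbv12-2 led in 4 OT1 cells. Whether the 51 cells carry another receptor or cell-free RNA was not tested. Values without the cells led by the other segment are given below beside the Trbv12 shares, the share of cells with another segment and the gate-by-receptor differences. Without them the summed pair fell by 1.25 on the log2 scale from OT1 to OT2 (edgeR adjusted p = 0.00379).

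Segments other than the transgenic Vβ5 pair made up the rest of the Trbv RNA, and their share was larger in OT2. The pair took 97.6% (interval 97.2 to 98.0%), 97.8% and 96.5% of Trbv UMIs in the OT1 mice. In the OT2 mice it took 77.8% (75.2 to 80.2%), 67.0% (64.5 to 69.4%) and 62.8% (59.9 to 65.6%). The mean was 97.3% ± 0.72 (SD, n = 3) in OT1 and 69.2% ± 7.77 (SD, n = 3) in OT2, a difference of 28.1 percentage points with no overlap, and the exact permutation p of 0.1 is the smallest that 3 against 3 mice allow. Without the cells led by the other Trbv12 segment the difference was 31.4 points (exact permutation p = 0.1), with means of 97.4% and 66.0%. As a level, other Trbv segments summed to 69.1, 63.9 and 114 CPM in the OT1 mice and to 466, 582 and 721 CPM in the OT2 mice.

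Over single segments, 25 of the 53 Trb genes passed the filter on low counts and 10 were called between the receptors at an edgeR adjusted p under 0.05, 8 higher and 2 lower in OT2. Over all 9092 genes tested 1.07% were called (0.671% higher, 0.396% lower). A segment at 0 in OT1 passes the filter through OT2 alone and then has to differ, so the count supports nothing by itself.

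The called segments besides the pair were Trbv3, Trbv13-1, Trbv15, Trbv17, Trbv19, Trbv24 and Trbv31, all higher in OT2. Trbv3, Vβ16 in the older naming, stood at 5.35, 1.07 and 8.62 CPM in the OT1 mice and at 81.8, 54.6 and 72.9 CPM in the OT2 mice (log2 fold change 3.87, edgeR adjusted p = 0.00355, SE 0.39). Trbv31 (Vβ14), which lies beyond Trbc2 at bases 41557693 to 41558371, stood at 0, 0 and 10.2 CPM in the OT1 mice and at 66.6, 104 and 64.5 CPM in the OT2 mice (4.83, SE 0.79, edgeR adjusted p = 0.0321). All 13 Trbv31 UMIs of OT1 came from the NegSelected mouse, 11 of them from 1 cell, and without that mouse the fitted change was 9.59. DESeq2 did not call Trbv31 (adjusted p = 0.0603). For neither segment did the groups overlap.

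Trbv13-1 had 89 UMIs in 20 OT2 cells and 0 in OT1. Its OT2 level was 77.3 times that of a floor of 3 UMIs over all OT1 cells. On the same floor the ratio was 55.6 for Trbv15 (64 UMIs in 17 cells). For Trbv17 it was 62.6 (72 UMIs in 7 cells, 5.71, 39.7 and 62.8 CPM in the OT2 mice). The floor takes UMIs as independent, but OT2 cells with a UMI held a median of 4, 2 and 5 UMIs of these segments, in that order. The ratios are therefore not lower bounds over cells or mice. These 3 segments rest on few cells. Trbv17 lost its call without the OT2 NegSelected mouse (adjusted p = 0.134) and with DESeq2 (0.0612), and Trbv15 without the OT1 (0.0578) or the OT2 (0.257) NegSelected mouse and with no host term (0.0536). Trbv19 (log2 fold change 2.51, SE 0.42) and Trbv24 (5.22, SE 0.75) had edgeR adjusted p-values of 0.0337 and 0.0182. Trbv19 lost its call in 7 of 12 alternatives, among them DESeq2 (adjusted p = 0.126) and the fits without the PosSelected or NegSelected mouse of either receptor (0.0510 to 0.476). Trbv24 lost it without OT1 NegSelected, OT2 NoSelection or OT2 NegSelected (0.0520 to 0.196).

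The segment with the most UMIs after the pair was Trbv13-2 (Vβ8.2 in the older naming, 375 UMIs). It was spread over 213 cells: 116 of 792 OT1 cells (14.6%) and 97 of 539 OT2 cells (18.0%), and 77 and 61 of these held a single UMI. Its CPM was 31.1, 26.9 and 74.4 in the OT1 mice and 76.1, 85.7 and 107 in the OT2 mice, which differed by a log2 fold change of 1.10 (SE 0.26) that did not pass (edgeR adjusted p = 0.118). Trbv1 (134 UMIs in 24 cells) and Trbv16 (109 UMIs in 27 cells) were found in fewer cells, with log2 fold changes of 2.49 (SE 0.53, edgeR adjusted p = 0.0855) and 2.27 (SE 0.66, edgeR adjusted p = 0.210). Trbv26, Trbv2, Trbv20 and Trbv13-3 had 38 to 52 UMIs each and were not called.

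At least 2 UMIs of 1 other segment were present in 59 OT1 cells and 172 OT2 cells. In the median one of these cells, for each receptor, all other-segment UMIs lay on that leading segment. The leading segment held a median of 3 UMIs in OT1 and 4 in OT2, so few UMIs were left to show a further segment. Of the 59 OT1 cells 52 (88.1%) held 1 other segment alone, and of the 172 OT2 cells 105 (61.0%) did. The others held up to 2 segments in OT1 and up to 4 in OT2. A leading segment at 5 UMIs or more was found in 25 OT1 cells over 10 segments and in 71 OT2 cells over 17 segments. Trbv3 led in 13 of the 71, Trbv31 in 12, Trbv1 in 8 and Trbv13-1 in 7. Of the 71 OT2 cells 38 also held a Trbv12 UMI, as did 16 of the 25 OT1 cells. Doublets were not called, and whether cells with 2 segments are single cells was not tested: 12.7% of the 71 OT2 cells and 0% of the 25 OT1 cells lay over the 95th percentile of RNA UMIs.

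The share of cells with another segment was compared after thinning every cell to 1500 UMIs. It was 7.72% (interval 4.96 to 11.4%), 6.30% (3.71 to 9.89%) and 13.1% (8.72 to 18.6%) in the OT1 mice, and 39.2% (29.4 to 49.6%), 41.7% (35.4 to 48.2%) and 47.4% (39.4 to 55.6%) in the OT2 mice. The means differed by 33.7 percentage points without overlap (exact permutation p = 0.1, the smallest possible). Without the cells led by the other Trbv12 segment the shares were 8.75%, 4.87% and 12.1% in the OT1 mice and 46.5%, 39.6% and 50% in the OT2 mice. Each set of thinned shares is 1 random draw, so small shifts between sets are not effects of the cells left out. The OT1 NegSelected mouse had 0 such cells and still moved from 13.1% to 12.1%. A further draw at 1500 UMIs with all cells gave 6.04%, 5.19% and 10.1% in OT1 and 41.2%, 38.8% and 46.2% in OT2. Unthinned and with all cells, the shares were at most 29.4% in OT1 and 51.6 to 54.8% in OT2.

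Of the joining and constant genes, Trbj2-1 was called between the receptors. It stood at 71.8, 59.6 and 86.2 CPM in the OT1 mice and at 13.3, 17.4 and 22.1 CPM in the OT2 mice, without overlap (log2 fold change -2.05, SE 0.24, edgeR adjusted p = 0.00708). It was the Trbj gene with most UMIs in OT1, at 35.9% ± 4.09 (SD, n = 3) of Trbj UMIs, against 13.6% ± 1.47 (SD, n = 3) in OT2. Its call was lost without the OT1 NegSelected mouse (Trbj2-1 adjusted p = 0.0898) and without the OT2 NegSelected mouse (0.0910). Trbj1-1 took 19.0% ± 1.98 (SD, n = 3) of Trbj UMIs in OT1, and in OT2 it ran from 0% in the NoSelection mouse to 26.2% in PosSelected. Its log2 fold change was -1.06 (SE 0.59, edgeR adjusted p = 0.485). The log2 fold changes of Trbj2-7 (-0.31, SE 0.32) and Trbj1-2 (-0.34, SE 0.39) did not pass either (edgeR adjusted p = 0.733 and 0.760).

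Trbc1 (bases 41538219 to 41539665) stood at 684, 804 and 668 CPM in the OT1 mice and at 666, 394 and 621 CPM in the OT2 mice. Trbc2 (bases 41546730 to 41548181) stood at 1359, 1746 and 1710 CPM in OT1 and at 1234, 1041 and 1607 CPM in OT2. Both constant genes were lower on average in OT2, by 0.42 (SE 0.20) and 0.36 (SE 0.15) on the log2 scale, and neither passed (edgeR adjusted p = 0.402 and 0.362). Trbc1 made up 31.0% ± 2.74 (SD, n = 3) of Trbc UMIs in OT1 and 30.1% ± 4.26 (SD, n = 3) in OT2 (exact permutation p = 0.8, with 0.1 the smallest possible).

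No Trb gene was called between hosts. Between PosSelected and NoSelection 0 of 25 passed by edgeR (2 at an unadjusted p under 0.05, 0 by DESeq2), where 0.0110% of all genes were called. Between NegSelected and PosSelected 0 of 25 passed (2 unadjusted, 0 by DESeq2), as did 0 of 25 between NegSelected and NoSelection (4 unadjusted, 0 by DESeq2), with 0% of all genes called in both. Each host term rests on 2 mice, 1 of each receptor, and the fit leaves 2 residual degrees of freedom. For the summed Trbv12 pair the host differences were -0.19 (SE 0.18), 0.05 (SE 0.18) and -0.14 (SE 0.18) on the log2 scale in that order.

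The antibody gates separated thymocytes by surface CD4 and CD8A. In conventional development thymocytes pass from CD4-CD8- through CD4+CD8+ to the single-positive stages. A gate is not read as a stage here. Whether these CD4-CD8- cells precede the CD4+CD8+ cells was not tested, and their Rag1 and gamma delta gene levels are given below. Thresholds were set by a 2-component mixture on the antibody counts; at a distance under 0.5 (log2) from the threshold there were 136 cells for CD4 and 131 for CD8A. The CD4+CD8+ gate held 19 to 41 cells per OT1 mouse and 33 to 86 per OT2 mouse, and the CD4-CD8- gate held 83 to 226 and 22 to 49. The CD4-CD8+ cells of the OT2 NoSelection (5 cells) and OT2 PosSelected (7 cells) mice were too few to be used.

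Constant-gene RNA was highest in CD4+CD8+ cells. Trbc1 plus Trbc2 stood at 6227, 4125 and 5492 CPM in the CD4+CD8+ cells of the OT1 mice and at 4530, 3662 and 3770 CPM in those of the OT2 mice. In CD4-CD8- cells the values were 1518, 2220 and 1628 CPM in OT1 and 1458, 1366 and 1554 CPM in OT2, below the CD4+CD8+ value in each of the 6 mice. In CD4+CD8- cells they were 1596, 2957 and 3589 CPM in OT1 and 492, 1072 and 1131 CPM in OT2, again below in each mouse.

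In the edgeR fit of gates with a term for each mouse, 14 Trb genes passed the filter. From CD4+CD8+ to CD4+CD8- cells 3 of them fell and 0 rose, where 11.5% of the 4300 genes tested were called (6.40% higher, 5.12% lower): Trbc1 fell by 1.65 (SE 0.25, edgeR adjusted p = 0.000130), Trbc2 by 1.24 (SE 0.25, adjusted p = 0.00164) and Trbj2-7 by 2.08 (SE 0.62, adjusted p = 0.0283) on the log2 scale. From CD4+CD8+ to CD4-CD8- cells 4 fell and 1 rose, where 11.7% of genes were called (7.02% higher, 4.67% lower): Trbc1 fell by 1.59 (SE 0.24, adjusted p = 6.58e-05), Trbc2 by 1.37 (SE 0.24, adjusted p = 0.000379), Trbj2-7 by 2.09 (SE 0.51, adjusted p = 0.00754) and Trbv31 by 3.12 (SE 0.81, adjusted p = 0.0160). Trbv12-2 rose by 1.48 (SE 0.29, adjusted p = 0.00101), a call lost with no mouse term (0.510). The Trbv31 call was lost without the OT1 NegSelected mouse (adjusted p = 0.0539), without the OT2 NoSelection mouse (0.126), with DESeq2 (0.118), with no mouse term (0.0542) and with at least 20 cells per sum (0.0550). As a level, Trbv31 stood at 340, 141 and 126 CPM in the CD4+CD8+ cells of the OT2 mice and at 2.84, 121 and 30.1 CPM in their CD4-CD8- cells. The Trbj2-7 call in CD4+CD8- cells was lost in 5 of 12 alternatives: with gate thresholds moved up (0.0558) or down (0.109), and without OT1 NoSelection (0.0553), OT2 NoSelection (0.0646) or OT2 PosSelected (0.119). In CD4-CD8+ cells 0 of 14 passed by edgeR (3 unadjusted, 0 by DESeq2), where 2.33% of genes were called (1.81% higher, 0.512% lower).

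**Figure D3:**
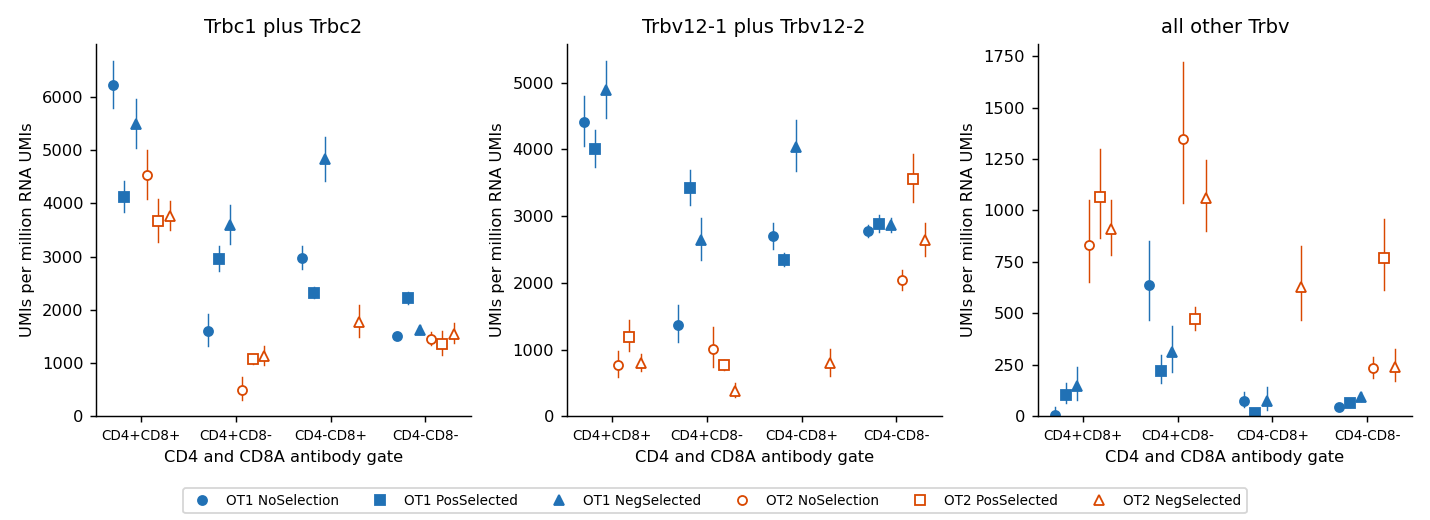
UMIs per 1000000 RNA UMIs of both Trbc genes, of the Trbv12 pair and of all other Trbv segments in each gate, 1 point per mouse with exact 95% Poisson intervals, where a mouse had at least 10 cells in the gate. Trbc levels are highest in CD4+CD8+ cells, the Trbv12 pair of the OT2 mice is highest in CD4-CD8- cells, and the other segments of the OT2 mice are lowest there in 2 of 3 mice.

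The transgenic pair changed with the gate in opposite directions in the 2 receptors. In OT1 it stood at 4414, 4004 and 4884 CPM in the CD4+CD8+ cells of its mice and at 2776, 2888 and 2866 CPM in their CD4-CD8- cells, lower in 3 of 3 mice. In OT2 it stood at 763, 1195 and 799 CPM in CD4+CD8+ cells and at 2041, 3559 and 2645 CPM in CD4-CD8- cells, higher in 3 of 3 mice. With a gate-by-receptor term, the change from CD4+CD8+ to CD4-CD8- cells was larger in OT2 than in OT1 by 2.32 on the log2 scale (SE 0.34, edgeR adjusted p = 0.000581), where 1.05% of the 5808 genes tested were called (0.775% higher, 0.275% lower). Without the cells led by the other Trbv12 segment the difference was 2.63 (adjusted p = 3.16e-05). Of the 19 genes 0 were called for CD4+CD8- cells (4 unadjusted; DESeq2 called Trbc1 alone, -1.17, adjusted p = 0.0349) and 0 for CD4-CD8+ cells (1 unadjusted, 0 by DESeq2). For these gates the pair's difference did not pass (0.55, SE 0.36, edgeR adjusted p = 0.608, and 1.00, SE 0.47, adjusted p = 0.539), where 0.121% (0.0689% higher, 0.0517% lower) and 0.930% (0.878% higher, 0.0517% lower) of genes were called.

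With the 2 segments apart, Trbv12-1 was the 1 Trb gene of 19 tested with a called difference between the receptors' changes from CD4+CD8+ to CD4-CD8- cells (3.34, SE 0.67, edgeR adjusted p = 0.0145). It stood at 35.2, 283 and 60.3 CPM in the CD4+CD8+ cells of the OT2 mice and at 822, 1013 and 446 CPM in their CD4-CD8- cells. Trbv12-2 stood at 728, 913 and 739 CPM in the same CD4+CD8+ cells and at 1219, 2546 and 2199 CPM in the CD4-CD8- cells, higher in 3 of 3 mice as Trbv12-1 was. Without cells led by the other segment the difference was 1.96 and did not pass (adjusted p = 0.474). DESeq2 did not call Trbv12-1 either (adjusted p = 0.0743), nor did the fits that left out the top 5% of cells by UMIs (0.0958), the OT1 NoSelection mouse (0.0702) or the OT1 NegSelected mouse (0.0641).

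The Trbv12 share of Trbv UMIs was higher in CD4-CD8- than in CD4+CD8+ cells in 3 of 3 OT2 mice. It was 47.8%, 52.9% and 46.8% in the CD4+CD8+ cells of the OT2 mice and 89.8%, 82.2% and 91.6% in their CD4-CD8- cells, a difference of 29.3 to 44.9 percentage points in the 3 mice. In OT1 it was 97.1 to 99.8% in CD4+CD8+ and 96.8 to 98.4% in CD4-CD8- cells, a difference of -1.38 to 0.44 points. The receptors' differences did not overlap and lay 39.1 points apart in the mean (exact permutation p = 0.1, the smallest possible). Over all 6 mice the exact sign-flip test of the change gave p = 0.1875 (0.28125 after Benjamini-Hochberg adjustment over 3 gates, 4 of 6 mice higher), and without the cells led by the other segment the mean change was 20.8 points (0.46875 after adjustment). In CD4+CD8- cells the share was 68.3%, 93.9% and 89.5% in the OT1 mice and 42.7%, 61.9% and 26.3% in the OT2 mice, lower than in CD4+CD8+ cells in 5 of 6 mice (adjusted exact p = 0.28125). The OT1 NoSelection value of 68.3% rests on 15 cells. In CD4-CD8+ cells of the 4 mice with enough cells the share differed by 2.34 points from CD4+CD8+ cells (adjusted exact p = 0.5).

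**Figure D4:**
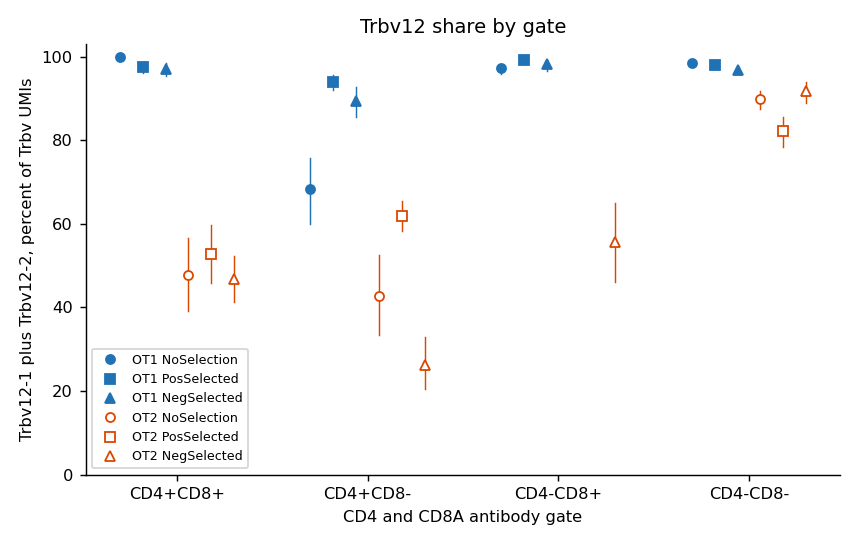
Trbv12-1 plus Trbv12-2 as a percent of all Trbv UMIs in each gate, 1 point per mouse with exact 95% Clopper-Pearson intervals, where a mouse had at least 10 cells. The OT2 mice lie between 26 and 62% in the CD4+CD8+ and CD4+CD8- gates and above 82% in the CD4-CD8- gate, while the OT1 mice stay above 89% except for 1 CD4+CD8- value.

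The number of Trbv UMIs per Trbc UMI was also compared between the gates. In CD4+CD8+ cells there were 0.710, 0.996 and 0.916 Trbv UMIs per Trbc UMI in the OT1 mice and 0.352, 0.617 and 0.453 in the OT2 mice. In CD4-CD8- cells the ratio was 1.86, 1.33 and 1.82 in OT1 and 1.56, 3.17 and 1.86 in OT2, higher in 6 of 6 mice (exact sign-flip p = 0.03125, the smallest that 6 mice allow, and 0.09375 after adjustment over 3 gates). In CD4+CD8- cells it was higher than in CD4+CD8+ cells in 5 of 6 mice (adjusted exact p = 0.09375).

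Other genes moved with these gates. The gamma delta T list (11 genes, 8 of them in the files) summed to 2130 to 3317 CPM in CD4-CD8- cells of the OT1 mice and 1693 to 2574 CPM in those of the OT2 mice, against 261 to 436 and 25 to 65 CPM in CD4+CD8+ cells. All 8 rose from CD4+CD8+ to CD4-CD8- cells in the edgeR fit, where 7.02% of all genes were called higher: Trdc by 2.38 on the log2 scale, Cd163l1 by 4.45, Sox13 by 4.93, Blk by 6.05, Trgc2 by 7.27, Trgc1 by 7.98, Maf by 8.56 and Trgc4 by 9.06. Trdc was at 787 to 1017 CPM in OT1 and 435 to 669 CPM in OT2 CD4-CD8- cells. From CD4+CD8+ to CD4+CD8- cells Trgc4 alone of the list rose (5.45, edgeR adjusted p = 0.0364). The NK and ILC list (5 genes) summed to 687 to 3986 CPM in the CD4-CD8- cells of the 6 mice and to 0 to 143 CPM in their CD4+CD8+ cells. Its 1 gene tested by gate, Gzma, which encodes granzyme A, rose by 4.68 in CD4-CD8- cells (SE 0.50, edgeR adjusted p = 2.73e-07) and by 2.60 in CD4-CD8+ cells (SE 0.57, adjusted p = 0.0208), while Ncr1 had 2 UMIs in all. The B cell list (6 genes) summed to 253 to 437 CPM in CD4-CD8- and 200 to 525 CPM in CD4+CD8+ cells. Its 1 gene tested by gate, Ighm, the heavy chain constant gene of IgM, fell by 1.23 in CD4+CD8- cells (SE 0.22, edgeR adjusted p = 0.000602).

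Of the recombination and pre-TCR list, 5 of 14 genes were tested by gate. Rag1, which with Rag2 cuts the DNA for V(D)J joining, fell from CD4+CD8+ to CD4-CD8- cells by 4.58 on the log2 scale (SE 0.41, edgeR adjusted p = 1.64e-07), to CD4+CD8- cells by 8.05 (SE 0.83, adjusted p = 6.52e-06) and to CD4-CD8+ cells by 3.98 (SE 0.74, adjusted p = 0.00769). In CD4-CD8- cells Rag1 was the 1 gene of the 5 called, where 4.67% of all genes were called lower. The same held in CD4-CD8+ cells, where 0.512% of all genes were called lower. In CD4+CD8- cells 4 of the 5 fell, where 5.12% of all genes were called lower. Among them were Dntt, the polymerase that adds bases at the joints (-3.86, SE 0.60, edgeR adjusted p = 0.000167), and Xrcc6, a subunit of the Ku end-joining complex (-1.34). Of the 15 genes of the TCR complex list, 9 fell and 0 rose in CD4-CD8- cells, where 4.67% of all genes were called lower. They were Trac, the alpha constant gene (-2.25, SE 0.25, adjusted p = 4.58e-07), Cd3d (-0.73), Lck (-0.96), Cd28 (-1.71), Cd2 (-1.83), Cd5 (-2.12) and the coreceptor genes Cd4 (-4.08), Cd8a (-4.36) and Cd8b1 (-3.61). In CD4+CD8- cells 3 of the 15 fell, Cd8a (-4.49), Cd8b1 (-3.69) and Trac (-1.16), and in CD4-CD8+ cells Cd4 did (-3.25). The gates were set on the surface proteins of Cd4 and Cd8a.

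Between the receptors Rag1 (4.35, SE 0.56, edgeR adjusted p = 0.0120), Rag2 (3.98, SE 0.53, adjusted p = 0.0162), Trac (3.45, SE 0.22, adjusted p = 0.000188) and Cd4 (2.83, adjusted p = 0.000232) were higher in OT2. Trdc (-1.88, SE 0.19, adjusted p = 0.00355), Trgc1 (-2.04, adjusted p = 0.0162) and Cd163l1 (-4.31, adjusted p = 0.000318) were lower by edgeR. Of the recombination and pre-TCR list 3 of 12 genes tested were called higher, and of the TCR complex list 2 of 15, with 0 lower in each. Of the gamma delta T list 3 of 8 were called lower and 0 higher. Over all genes 0.671% were called higher and 0.396% lower. The B cell list summed to 302 to 375 CPM in the OT1 and 196 to 325 CPM in the OT2 mice, and the NK and ILC list to 483 to 1065 and 236 to 998 CPM, and of the 2 genes tested in each list 0 were called. The CD4+CD8+ and CD4+CD8- gates summed held a larger part of the cells in OT2 than in OT1 in each host. Myeloid markers summed to 2.35 to 5.71 CPM in the 6 mice, with C1qa at 0. The part of these cell types in the Trb results was not tested.

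Antibody tags gave a readout at the surface. The tag for Vβ5 (TCRVB5.1-TCRVB5.2) stood at 7140, 7395 and 6353 UMIs per 1000000 antibody UMIs in the OT1 mice and at 4686, 6796 and 3663 in the OT2 mice. Within each host the OT2 mouse was the lower of the pair, but across hosts the groups overlapped. The difference did not pass (log2 fold change -0.53, SE 0.22, edgeR adjusted p = 0.331). Another tag, for the whole beta chain (TCRB), stood at 5136, 5936 and 4828 in OT1 and at 4575, 12180 and 6665 in OT2 (0.43, SE 0.30, edgeR adjusted p = 0.549). The tag for Vβ8 (TCRVB8.1-TCRVB8.2) lay between 1032 and 1107 in all 6 mice. None of the 3 tags was called in any of the 4 comparisons by edgeR (0 unadjusted) or by DESeq2 (at an unadjusted p under 0.05, Vβ5 passed in 2 and TCRB in 1). Of the 116 tags tested by edgeR, 0% were called between receptors, 0.862% between PosSelected and NoSelection and 0% in the other 2.

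Cells in which the RNA showed another segment carried less of the Vβ5 tag in 5 of 5 mice. Cells with at least 2 UMIs of another segment and no Trbv12 UMI had a Vβ5 tag level of 987 and 1069 per 1000000 in the OT1 NoSelection and NegSelected mice and of 1965, 2733 and 1660 in the OT2 mice (5 to 32 cells each). Cells called Trbv12 alone had 7222, 6774, 5939, 7523 and 4912 in the same mice. These held a Trbv12 UMI and under 2 UMIs of any other segment, so they can include cells with single UMIs of other segments. The mean log2 ratio was -2.03 ± 0.68 (SD, n = 5), lower in 5 of 5 mice, and the exact sign-flip p of 0.0625 is the smallest that 5 mice allow (0.28125 after adjustment over 9 comparisons). The OT1 PosSelected mouse had 3 such cells, under the minimum of 5, at 856. A low Vβ5 tag was not limited to cells with another segment. Cells with no Trbv12 UMI and under 2 UMIs of any other segment stood at 5563, 7491 and 6414 in the OT1 mice. In the OT2 mice they stood at 1704, 6459 and 2430, and this class was not tested. The pooled TCRB tag level was higher in cells with another segment and no Trbv12 UMI than in cells with Trbv12 alone in 5 of 5 mice. The mean log2 ratio was 1.35 ± 0.81 (SD, n = 5, exact sign-flip p = 0.0625, adjusted 0.28125). The median TCRB UMIs per cell, not scaled to depth, were 11 against 13 in OT1 NoSelection and 79 against 17 in OT1 NegSelected. In the OT2 mice they were 14 against 7, 68 against 38.5 and 30 against 10. Cells with a Trbv12 UMI and at least 2 UMIs of another segment were also set against Trbv12 alone. Their Vβ5 tag was at a mean log2 ratio of -0.28 ± 0.29 (SD, n = 6), lower in 5 of 6 mice (exact sign-flip p = 0.09375, adjusted 0.28125).

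The Vβ8 tag was set against the RNA of Trbv13-2 and Trbv13-3, genes of the Vβ8 family, in 4 mice with at least 3 cells that held 5 UMIs or more of them. Against cells with none, the Vβ8 tag was at a mean log2 ratio of 0.42 ± 0.72 (SD, n = 4), higher in 3 of 4 mice (exact p = 0.375, adjusted 0.421875). The Vβ5 tag was lower in 4 of 4 mice (-1.13 ± 0.46 (SD, n = 4), exact p = 0.125, the smallest that 4 mice allow, adjusted 0.28125). The TCRB tag was higher in 3 of 4 mice (0.49 ± 0.87 (SD, n = 4), exact p = 0.25, adjusted 0.401786).

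Cells with at least 2 UMIs of another segment and no Trbv12 UMI made up 1.06 to 2.45% of the cells of an OT1 mouse and 7.48 to 18.1% of those of an OT2 mouse. After thinning to 1500 UMIs they made up 1.48 to 1.68% and 6.67 to 15.4%.

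**Figure D5:**
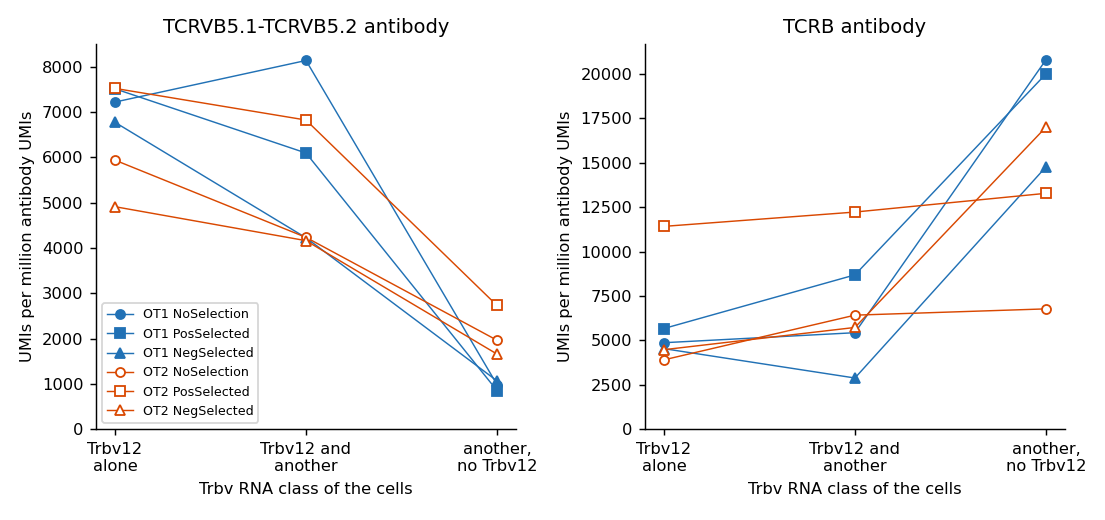
Level of the Vβ5 tag and of the TCRB tag, in UMIs per 1000000 antibody UMIs, by the Trbv RNA class of the cells, with 1 line per mouse. In mice with at least 5 cells of the class, the Vβ5 tag is at 987 to 2733 in cells with another segment and no Trbv12 UMI and at 4912 to 7523 in cells with Trbv12 alone. Another segment counts here from 2 UMIs, so cells with Trbv12 alone can hold single UMIs of other segments.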

How the data were processed

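RNA and antibody libraries of 6 mice were used, 1 per receptor and host, and the VDJ libraries were not used. The authors deposited RNA and antibody UMI counts per cell, without normalization. Cell Ranger 8.0.1, Seurat and mm10 were used, per the submitters' processing notes. How hashtags were assigned and which cells or doublets were removed is not given in the sources used here, and no cell was removed or doublet caller run here. Cells were tied to mice by hashtag. Cells were gated on log2 CD4 and CD8A antibody values (2-component mixture, scikit-learn 1.9.0). Counts were summed per mouse, or per mouse and gate of at least 10 cells, and tested with edgeR 4.0.16 (quasi-likelihood, TMM, filterByExpr; R 4.3.3), tested on simulated data first; the SE is the fold change over the square root of F. The models had terms for receptor and host, or for mouse and gate. P-values are two-sided, adjusted over all genes by Benjamini-Hochberg, with a threshold of 0.05. With 1 mouse per receptor and host, p-values of the receptor and host fit measure the spread between single mice left after those terms. Any difference of the host effect between receptors is part of that spread. Those of the gate fits measure the spread between gate sums left after the mouse and gate terms. Alternatives were DESeq2 1.42.0, RLE factors, no filter, other library sizes, gates and minimum cells, left-out mice and left-out cells. Named genes were Trbc1, Trbc2, the Trbv12 pair, every called Trb gene, the 10 other Trbv and 4 Trbj with most UMIs, every Trbd gene and called list genes. Members and lists were chosen with earlier results of these data known. No beta segment sequence was in the reference tables used here. One marker list and some list genes are not reported here.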

Additional observations from a re-analysis of the deposited data

Results flagged for a closer look

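The change of the summed Trbv12 pair, Trbv12-1 plus Trbv12-2, from CD4+CD8+ to CD4-CD8- cells differed between the receptors by 2.32 on the log2 scale (edgeR, gate-by-receptor term, adjusted p = 0.000581). The pair was higher in CD4-CD8- cells in 3 of 3 OT2 mice and lower in 3 of 3 OT1 mice. Trbv12-1 alone differed by 3.34 in the same term (edgeR adjusted p = 0.0145). Without cells led by the other Trbv12 segment the Trbv12-1 value was 1.96 and did not pass (adjusted p = 0.474).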

How the results depend on the processing

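The number of Trb genes called between OT2 and OT1 was 10. It was 19 with no low-count filter, 6 with no host term and from 5 to 16 when 1 mouse was left out, with 5 without OT2 NegSelected, 6 without OT1 NegSelected and 16 without OT2 NoSelection. Trbv3, Trbv12-1 and Trbv12-2 were called in the same direction in all 13 alternatives of that fit. With no low-count filter 2, 1 and 2 Trb genes were called between hosts (PosSelected against NoSelection, NegSelected against PosSelected, NegSelected against NoSelection); left-out mice gave 0 to 3, 0 to 0 and 0 to 1, the 3 and the 1 without OT1 NoSelection. With no low-count filter the gates had 10, 4 and 12 calls (CD4+CD8-, CD4-CD8+ and CD4-CD8- against CD4+CD8+), and with no mouse term CD4-CD8- had 2; left-out mice gave 2 to 4, 0 to 0 and 4 to 5. Trbc1 and Trbc2 fell in CD4+CD8- and CD4-CD8- cells in all 15 alternatives. The Trbv12 pair's difference between receptors in CD4-CD8- cells stayed past the threshold in all 13 alternatives (2.16 to 2.63 on the log2 scale, adjusted p from 3.16e-13 to 0.00871); the fit without OT2 NegSelected could not be made, since no OT2 CD4-CD8+ sum was left. The Trbc1 share of Trbc UMIs, 0.927 points lower in OT2, was 1.20 points higher when cells above the 95th percentile of UMIs were left out, and it ran from -3.39 to 0.41 with 1 mouse left out (0.299 without OT1 NoSelection, 0.409 without OT2 PosSelected, 0.195 without OT2 NegSelected). The Trbj1 share of Trbj UMIs ran from -6.76 to 12.9 points (-6.76 without OT2 PosSelected, -0.265 without OT2 NegSelected). The Trbv12 share difference ran from -32.4 to -24.9 points, that of Trbv12-1 within the pair from -84.2 to -72.4, and that of cells with another segment from 31.4 to 35.8 points. By gate the Trbv12 share ran from -13.7 to -5.55, 0.12 to 3.97 and 14.0 to 23.3 points, and antibody calls were 0 throughout. The cause of these changes was not tested. Cells led by the other Trbv12 segment and the gate-by-receptor term were chosen after seeing the data. No paired analysis was possible because, for pairing by replicate number, each receptor and host has 1 mouse; receptors were compared within hosts by the host term and gates within mice by the mouse term. Depth limits the OT2 mice, whose cells held fewer UMIs, so absence of a segment from a cell was not detectable there.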
